A study of Mus musculus with 576 samples.

Results

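The Slit ligands and Robo receptors were examined as a set of 7 genes (Slit1, Slit2, Slit3, Robo1, Robo2, Robo3 and Robo4) among the 36658 gene identifiers of each of 3 count tables, the genes being taken by symbol alone. The tables hold Smart-seq2 libraries, each made from 1 GFP+ cell, of 576 cells that were sorted from dorsal pancreatic buds at E12.5, with 2 plates of 96 wells for each of 3 mouse lines on a C57BL/6J background. In the Nkx2.5-Cre;mTmG and Nkx3.2-Cre;mTmG lines, called Nkx2.5-Cre and Nkx3.2-Cre from here on, a Cre recombinase under Nkx2.5 or Nkx3.2 had switched on membrane GFP, so that sorted cells were any descendants of cells that once expressed the driver. In the Prox1-GFP line, a Prox1-EGFP transgene marked cells that held its GFP at the time of sorting. All cells carried reporter alleles, no line served as an untreated control, and the labels name no embryo, litter or sex. Each line therefore counted as 1 sample and no test or p-value was computed from its cells. Each line had its own plates, so a plate or batch effect cannot be told apart from the line in any comparison between lines. Library numbers of the Prox1-GFP cells also form a run of their own.

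Slits are large secreted proteins that bind the Robo receptors on the surface of the same or neighbouring cells, and the pair was first known from the repulsion of growing axons at the midline of the nervous system. Bound Robos act on the cytoskeleton through srGAP proteins, Abl kinases and Ena/VASP proteins, and heparan sulfate proteoglycans such as syndecans and glypicans hold ligand and receptor together. In the pancreas, Robo1 and Robo2 are known for keeping the identity of early progenitors and for the arrangement of endocrine cells within islets, while Robo3 acts mainly in commissural neurons and Robo4 in endothelium.

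On GRCm38 the ligand genes lie on 3 chromosomes, Slit1 at chr19:41600257-41743665 (minus strand), Slit2 at chr5:47983138-48307733 (plus strand) and Slit3 at chr11:35121224-35708507 (plus strand). The receptors lie in pairs, Robo1 at chr16:72308306-73046095 (plus strand) near Robo2 at chr16:73891839-74411825 (minus strand), and Robo4 at chr9:37401897-37415115 (plus strand) next to Robo3 at chr9:37415669-37433246 (minus strand).

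Slit2, Slit3, Robo1 and Robo2 are the members on which most values below rest, and their promoter windows are shown for that reason. The windows are the 250 bases before a transcript start in RefSeq on GRCm38.p6, and 8 of them cover the members other than Slit1, Robo2 having 3 starts. Capitals mark matches, on either strand, to TATAAA (the TATA box), CCAAT (the CCAAT box), GGGCGG (the GC box), TGTTTAC (the forkhead core) or CAGCTG (an E-box), and overlapping matches run together.
Slit2, chr5:47982905-47983154, plus strand: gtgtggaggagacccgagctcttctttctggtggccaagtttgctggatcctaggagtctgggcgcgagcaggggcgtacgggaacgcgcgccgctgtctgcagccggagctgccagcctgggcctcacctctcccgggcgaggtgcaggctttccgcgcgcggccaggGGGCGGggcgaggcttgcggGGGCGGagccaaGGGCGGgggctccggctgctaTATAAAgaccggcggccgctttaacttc
Slit3, chr11:35121206-35121455, plus strand: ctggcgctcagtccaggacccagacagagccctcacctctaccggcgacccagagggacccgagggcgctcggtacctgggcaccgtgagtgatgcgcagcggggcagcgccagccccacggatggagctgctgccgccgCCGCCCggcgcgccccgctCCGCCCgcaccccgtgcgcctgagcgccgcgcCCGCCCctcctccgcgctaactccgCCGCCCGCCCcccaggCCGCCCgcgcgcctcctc
Robo1, chr16:72662899-72663148, plus strand: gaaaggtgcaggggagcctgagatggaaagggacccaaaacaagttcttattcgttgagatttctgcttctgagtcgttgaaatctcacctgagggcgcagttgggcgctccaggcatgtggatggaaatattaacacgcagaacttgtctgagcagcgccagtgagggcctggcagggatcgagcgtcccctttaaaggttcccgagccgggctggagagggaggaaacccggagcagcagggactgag
Robo2, chr16:74411826-74412075, minus strand: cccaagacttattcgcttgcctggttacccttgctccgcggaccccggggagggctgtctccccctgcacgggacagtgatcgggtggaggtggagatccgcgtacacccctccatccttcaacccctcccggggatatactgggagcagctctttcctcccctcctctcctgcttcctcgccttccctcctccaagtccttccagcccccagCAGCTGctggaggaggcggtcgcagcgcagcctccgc
The Slit2 window holds 1 TATA box, TATAAA, 28 bases before the start, and 3 GC boxes, GGGCGG. The Slit3 window holds 6 GC boxes, written here as CCGCCC on the other strand, with 35 CpG dinucleotides and 78.8% G or C. None of the 5 motifs was found in the Robo1 window, which lies inside the gene span given above and so before an internal start. The Robo2 window shown, next to the gene span given above, holds 1 E-box, CAGCTG. In the other Robo2 windows, not shown, none of the 5 motifs was found. Of all 32851 windows of this length, 12.4% hold TATAAA, 33.8% CCAAT, 32.7% GGGCGG, 3.17% TGTTTAC and 13% CAGCTG. The Slit3 window has more CpG dinucleotides than 97.03% of all windows, whose median is 6, and more G or C than 98.3% of them, whose median is 52.4%.

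A microRNA lies inside 2 of the ligand genes and its seed has matches in members of both kinds. The microRNA miR-218-5p is encoded inside both Slit2 (chr5:48223966-48223986) and Slit3 (chr11:35616840-35616860), each time in intron 14 of the 35 introns of the host's longest transcript and outside every annotated exon. Its seed, bases 2 to 8, is in capitals in the mature sequence, and the matching AAGCACA is in capitals in the stretches of the receptors' longest 3′ untranslated regions.
miR-218-5p: uUGUGCUUgaucuaaccaugu
Robo1: tttggttttaaAAGCACAatcactaa
Robo2, upstream match: tatttggtgatAAGCACAaatctcta
Robo2, downstream match: acggcagacccAAGCACAgcttcttt
A seed match occurs in 13.8% of 21020 genes, and in 18.5% and 38% of genes with untranslated regions of a length like those of Robo1 and Robo2. Slit2 itself has 2 matches, where 33.5% of genes of like length have any, and Robo3 has 1, where 3.09% do, while Slit1, Slit3 and Robo4 have 0. The microRNA itself was not measured, and the matches are matches of letters only.

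Of 576 cells, 549 passed the filters, with 224814 to 1512740 counts per cell and a median of 901156. The median number of genes detected was 5750 in the Nkx2.5-Cre line, 7235 in the Nkx3.2-Cre line and 6993 in the Prox1-GFP line. By marker genes, 415 cells were mesenchymal, 87 epithelial, 20 endocrine and 26 mesothelial, and 1 had no state. The epithelial and endocrine cells all came from the Prox1-GFP line, while the mesenchymal cells included 170 of the Nkx3.2-Cre and 77 of the Prox1-GFP line, and the rest were of the Nkx2.5-Cre line. Of the mesothelial cells, 21 came from the Nkx3.2-Cre line, 18 of them on plate 7B, and 5 from the Nkx2.5-Cre line, and 22 of the 26 also carried mesenchymal markers. Epcam stood at 845 CPM in epithelial cells and at most at 3.12 CPM in the mesenchymal cells of any line, and Col3a1, a collagen of mesenchyme, at 1.55 CPM in the former and at least at 1324 CPM in the latter. Levels are given as CPM, the counts of a gene scaled to 1000000 counts in all, of the summed counts of a group, with an exact 95% Poisson interval, and shares of cells with at least 1 count carry exact binomial intervals, both covering counting error only.

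Slit2 was the ligand of the mesenchyme. Its level in mesenchymal cells was 267.5 CPM (95% interval 265–269.9) in the Nkx2.5-Cre line, 267.5 CPM (264.9–270.1) in the Nkx3.2-Cre line and 137.97 CPM (134.99–141.01) in the Prox1-GFP line. The plates stood at 273.6 and 260.8 CPM in the Nkx2.5-Cre line, at 258.5 and 281.2 CPM in the Nkx3.2-Cre line and at 200.2 and 95.8 CPM in the Prox1-GFP line. The plates of the Cre lines thus overlapped, whereas both Prox1-GFP plates lay below all 4 of them. Equal sums did not mean equal cells. The share of mesenchymal cells holding Slit2 was 75.6% (68.4–81.9) in the Nkx2.5-Cre line and 92.9% (87.99–96.3) in the Nkx3.2-Cre line, and after thinning every cell to 100000 counts it was 70.8% and 90%. Among cells holding the gene, the median was 254.4 CPM in the Nkx2.5-Cre line and 210.7 CPM in the Nkx3.2-Cre line, and the highest cells reached 1968 and 1297 CPM. The Nkx2.5-Cre line therefore had a smaller share of cells with Slit2 and a higher median among them. The quartiles of these cells overlapped, at 109.8 and 480.2 CPM against 104.6 and 395.9 CPM in the Nkx3.2-Cre line. By plate, the share holding Slit2 was 82.8% and 67.9% in the Nkx2.5-Cre line and 93.5% and 92.3% in the Nkx3.2-Cre line. Cells of the Nkx2.5-Cre line also had fewer genes detected, with a median of 5750 against 7235. The part of the number of genes in the difference between shares was not tested. Across all mesenchymal cells of a line, from a lowest value of 0, the median cell stood at 149.2, 198.3 and 88 CPM in the Nkx2.5-Cre, Nkx3.2-Cre and Prox1-GFP lines.

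Outside the mesenchyme Slit2 was low or intermediate. Mesothelial cells of the Nkx3.2-Cre line held 110.8 CPM (105.9–115.8), with at least 1 count in 19 of 21 cells. That level was above the 95.8 CPM of the mesenchymal cells on plate 8B of the Prox1-GFP line. Epithelial cells held 3.96 CPM (3.52–4.45) and endocrine cells 0.121 CPM, the latter from 1 cell. Slit2 was found in 16.1% (9.09–25.5) of epithelial cells. For scale, of 2 fibrillar collagens of mesenchyme, Col1a1 was found in 36.8% of them at 3.08 CPM and Col3a1 in 2.3% at 1.55 CPM. Whether the Slit2 counts of epithelial cells were made in those cells was not tested.

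Slit3 was the ligand shared by epithelium and mesenchyme. Its level was 28.8 CPM (27.6–30.02) in epithelial cells, 27.1 CPM (26.3–27.9) in the mesenchymal cells of the Nkx2.5-Cre line, 56.04 CPM (54.9–57.2) in those of the Nkx3.2-Cre line and 47.8 CPM (46.01–49.6) in those of the Prox1-GFP line. Plates stood at 25.8 and 32.1 CPM in epithelium and at 35 and 18.6, 60.1 and 49.8, and 52.5 and 44.6 CPM in the mesenchyme of the lines in the same order. The epithelial plates fell between those of the Nkx2.5-Cre mesenchyme, so the order of these groups was not larger than the spread between plates. At least 1 count was found in 45.98% of epithelial cells and in 29.2%, 57.6% and 51.9% of the mesenchymal cells of the lines. The epithelial cells were not alike, as 37 of 56 with markers of the branch tips, described below, held Slit3 against 3 of 30 without. Mesothelial cells of the Nkx3.2-Cre line held 5.83 CPM (4.76–7.08), all of it on plate 7B, and endocrine cells held 5.98 CPM from 2 cells.

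Slit1, the ligand best known from the nervous system, was the rarest of the Slits over all cells, though the most widely held of them among endocrine cells. It reached 19.4 CPM (18.7–20.1) in the mesenchymal cells of the Nkx3.2-Cre line, where 34 of 170 cells held it, and 4.91 CPM (4.58–5.25) in those of the Nkx2.5-Cre line, where 13 did. The plates stood at 16.1 and 24.4 CPM against 5.4 and 4.4 CPM and did not overlap. In the mesenchyme of the Prox1-GFP line 1 cell held all the counts, in epithelium 3 cells did, and no mesothelial cell held any. Among endocrine cells, 6 of 20 had at least 1 count, with a level of 7.19 CPM (5.96–8.60), and 10% of them kept a count after thinning.

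Robo1 was the receptor present in every state. Mesenchymal levels were 56.4 CPM (55.3–57.6), 52.3 CPM (51.1–53.4) and 71.5 CPM (69.3–73.7) in the Nkx2.5-Cre, Nkx3.2-Cre and Prox1-GFP lines, with the plates at 51.7 and 61.5, 53.2 and 50.8, and 63.1 and 77.2 CPM. Both Prox1-GFP plates lay above those of the Cre lines, which overlapped each other. Mesothelial cells held 29.5 CPM (27.02–32.2) in the Nkx3.2-Cre line, epithelial cells 23.1 CPM (22.01–24.2) and endocrine cells 1.93 CPM (1.32–2.73). At least 1 count was found in 52.4%, 68.2% and 61.04% of the mesenchymal cells of the lines, in 57.1% of mesothelial, 43.7% of epithelial and 25% of endocrine cells. The top 3 cells held 21.4%, 11.9% and 23.7% of its counts in the mesenchyme of the lines, 29.5% in epithelium and 93.8% in the endocrine cells.

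Robo2 was held by few cells. Mesenchymal levels were 32.2 CPM (31.4–33.1) in the Nkx2.5-Cre line, 18.5 CPM (17.9–19.2) in the Nkx3.2-Cre line and 5.31 CPM (4.73–5.93) in the Prox1-GFP line, from 14.9%, 18.8% and 9.09% of cells. The cells that held it carried much more than these means, with a median of 209.0 CPM, 56.8 CPM and 43.5 CPM in the same order. Plates of the Nkx2.5-Cre line stood at 49.1 and 14.1 CPM and those of the Nkx3.2-Cre line at 13.9 and 25.5 CPM, so the Cre lines overlapped. In epithelium 5 of 87 cells held Robo2, all on plate 8A, with a median of 16.3 CPM among them and 308.8 CPM in the highest. No endocrine cell held it, and 0 of 20 cells allows a share of cells with a count of up to 16.8% by the exact binomial interval. In the mesothelium of the Nkx3.2-Cre line 6 of 21 cells held it, all on plate 7B, for 19.4 CPM (17.4–21.6).

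Robo3 and Robo4 were nearly absent. Robo3 was found as 9 counts in 1 mesenchymal cell of the Prox1-GFP line. Robo4 was found in 3 mesenchymal cells, at 0.760 and 153.3 CPM in the Nkx2.5-Cre line and 174.5 CPM in the Nkx3.2-Cre line. The endothelial genes Cdh5 and Cldn5 were at 0 in these cells and in all 549, while Pecam1 was found in 99.8% of all cells at 40.8 CPM and so did not mark a state here. Over all 549 cells, Slit2 was held by 375, Robo1 by 308, Slit3 by 236, Robo2 by 76, Slit1 by 57, Robo4 by 3 and Robo3 by 1.

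**Figure D1:**
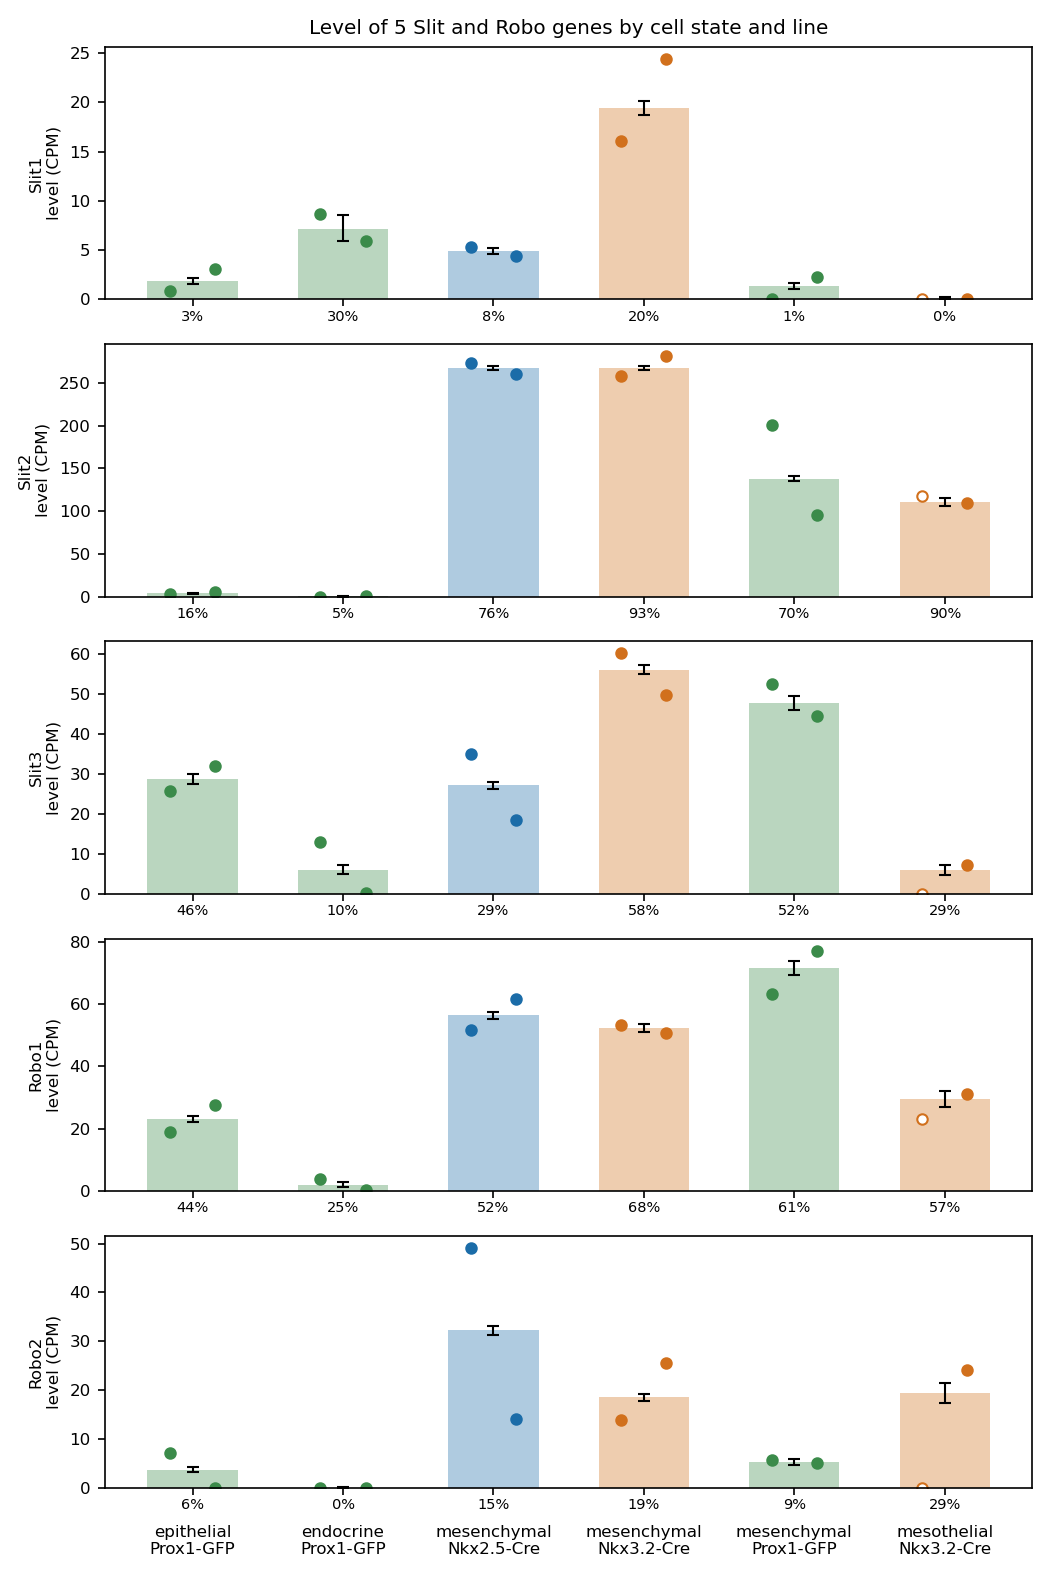
Level in CPM of the summed counts (vertical axes, linear, from 0) of Slit1, Slit2, Slit3, Robo1 and Robo2 for 6 groups of cells by state and line. Bars give both plates together with exact 95% Poisson intervals, points give each plate (open points, under 10 cells) and percentages give the share of cells with at least 1 count; Slit2 stands at 267.5 CPM in both Cre lines and at 3.96 CPM in epithelium, while Slit3 does not separate them in this way.

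Levels of different genes can be compared only per length, and the answer depended on the length used for Slit2, whose merged exons span 25433 bases against 9960 in its longest transcript. Per kb of merged exon, Slit2 stood at 10.52 CPM, Slit3 at 4.47 CPM, Robo1 at 3.42 CPM, Robo2 at 1.9 CPM and Slit1 at 0.829 CPM in the mesenchyme of the Nkx2.5-Cre line. Slit2 led in both Cre lines by either length. In the Prox1-GFP mesenchyme Slit3 led by merged exons, at 7.87 CPM per kb against 5.42 for Slit2, and Slit2 led by longest transcript, at 13.9 CPM per kb against 9.45 for Robo1 and 9.14 for Slit3. In epithelium Slit3 led by either length, at 4.74 CPM per kb of merged exon against 1.40 for Robo1.

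The question of which tissue layer held ligand and receptor was put within the Prox1-GFP line, where epithelial and mesenchymal cells came from the same plates. A gene counted as higher or lower at a ratio of at least 2, when it reached 10 CPM in either group. Of 10798 genes that did, 14.6% were higher and 13.6% lower in epithelium. Among the 7 members 3 reached 10 CPM, of which 0 were higher and 2 lower. Slit2 was 34.8-fold lower in epithelium (30.95–39.2 by counting error), and 19.03-fold and 66.1-fold lower on the separate plates. Robo1 was 3.10-fold lower (2.93–3.28), and 2.80-fold and 3.31-fold on the plates. Slit3 was 1.66-fold lower (1.57–1.76), 1.39-fold and 2.03-fold on the plates, and did not count as changed. The ratio of Slit3 on 1 plate alone passed the 2-fold line. Slit2 thus set the layers apart far more than its receptor Robo1 or the other ligand Slit3 did.

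Mesothelium, the epithelial sheet that covers the organ, was set against mesenchyme within the Nkx3.2-Cre line. Of 10602 genes tested, 12.2% were higher and 12.5% lower in mesothelial cells. Of 5 members tested, 0 were higher and 3 lower, all of them Slits. Slit1 had 0 counts in mesothelial cells, at least 91.9-fold lower by counting error and 113.1-fold at a floor of 3 counts. Those folds rest on counts, and by cells the difference is less sure. By the exact binomial interval, 0 of 21 cells allows a share of up to 16.1%, against 20% (14.3–26.8) in mesenchymal cells, so the intervals overlap. Slit3 was 9.61-fold lower (7.90–11.8) and Slit2 2.42-fold lower (2.31–2.53). Robo1 was 1.77-fold lower (1.62–1.94) and Robo2 stood at a ratio of 1.05 (0.932–1.17), and neither receptor counted as changed. Without plate 7B, which leaves 3 mesothelial cells, all 5 members were lower. The ratio of Slit2 was 0.733, short of 2-fold, when cells with markers of both states were left out. Few mesothelial cells then remained, since 22 of the 26 over both Cre lines carried markers of both states.

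Both Cre lines mark mesenchyme, and their mesenchymal cells were set side by side. Each line had its own plates, so line and batch cannot be told apart here, and the 4 pairs of plates below share plates. The lines differ in which cells they sorted as well as in their driver, as a mesenchymal cluster of 71 cells held 61 of the Nkx2.5-Cre and 6 of the Nkx3.2-Cre line, one of 65 cells 21 and 43, and one of 38 cells 1 and 31, and the part of this in the ratios was not tested. Of 10147 genes tested, 4.26% were higher and 5.8% lower in the Nkx2.5-Cre line. Of 5 members tested, 0 were higher and 2 lower. Slit1 was 3.95-fold lower (3.66–4.27) and was lower in each of 4 pairs of plates. Slit3 was 2.07-fold lower (1.995–2.14), also in each of 4 pairs, but its ratio was 0.625 without plate 6B and 0.544 without plate 7A, so that it no longer passed. Slit2 stood at a ratio of 0.9997 (0.987–1.013) and Robo1 at 1.08 (1.05–1.11). Robo2 stood at 1.74 (1.66–1.82), at 0.760 without plate 6A and at 2.65 without plate 6B, so 1 plate set its direction.

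The mesenchymal cells of the Prox1-GFP line, set against those of the Nkx3.2-Cre line, showed less Slit1 and Robo2. Of 10133 genes tested, 4.05% were higher and 4.86% lower in the Prox1-GFP line. Of 5 members tested, 0 were higher and 2 lower. Slit1 was 14.3-fold lower (11.5–18.1), its counts in the Prox1-GFP line coming from 1 cell. Robo2 was 3.49-fold lower (3.11–3.94) and was lower in each of 4 pairs of plates. Slit2 was 1.94-fold lower (1.89–1.99), in each of 4 pairs, with a ratio of 0.358 without plate 8A and 0.749 without plate 8B. Robo1 was 1.37-fold higher (1.32–1.42) in each of 4 pairs, under the 2-fold line. Both Cre-line comparisons share the Nkx3.2-Cre cells.

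**Figure D2:**
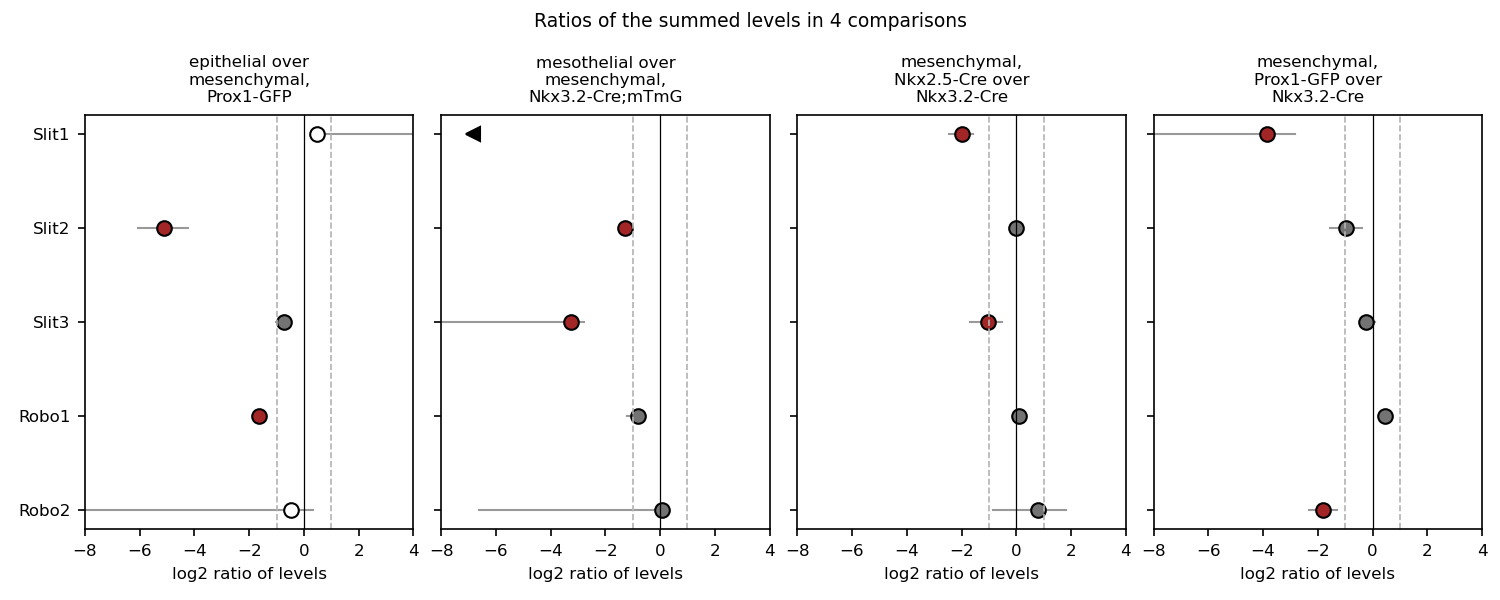
Log2 ratio of summed levels (horizontal axes) of 5 members in 4 comparisons, named above the panels. Points give both plates together, red where the gene counted as lower, grey where it was tested and did not count, open where it stayed under 10 CPM. A triangle gives a value computed at the floor of 3 counts, and dashed lines mark 2-fold. Grey bars run from the lowest to the highest ratio of plate pairs, ending at the edge where they leave the axis. Slit2 in epithelium lies at -5.12, and no member lies past 2-fold on the right among those tested.

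Mesenchymal cells were then divided by clustering on variable genes from which the members and the pathway genes had been left out, and clusters were named from marker lists that hold genes the study took from these cells. The M-SpP-like cluster, with markers of the spleno-pancreatic mesenchyme such as Nkx2-5 and Tlx1, held 65 cells (21, 43 and 1 of the Nkx2.5-Cre, Nkx3.2-Cre and Prox1-GFP lines). The M-VSM-like cluster, with mural genes such as Acta2 and Tagln, held 38 cells, 31 of them of the Nkx3.2-Cre line. The M-III-like cluster, with markers such as Isl1, held 24 cells, 18 of them of the Prox1-GFP line. A proliferating cluster held 76 cells, and 3 large clusters of 87, 71 and 52 cells passed no naming rule.

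Robo2 stood highest in the M-SpP-like cluster but was not confined to it, as 25 of the 64 mesenchymal cells with Robo2 lay there. Its level was 81.6 CPM (79.4–83.9) there and 11.3 CPM in all other mesenchymal cells, a ratio of 7.19 (6.89–7.50), and 38.5% of cells held it against 11.1%. Within the Nkx2.5-Cre line it stood at 153.1 CPM against 15.6 CPM, and within the Nkx3.2-Cre line at 46.02 CPM against 8.80 CPM. The direction was the same in both lines that had cells to compare. Robo2 also stood at 40.4 CPM in 6 M-III-like cells of the Nkx3.2-Cre line, of which 2 held it. Its lowest level was in the unnamed cluster of 52 cells, at 0.0219 CPM from a single count, and the M-VSM-like cluster held 3.49 CPM from 1 cell. Of the 65 M-SpP-like cells 37 were cycling, and with cycling cells left out the ratio was 16.4.

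Slit1 was also at its highest in the M-SpP-like cluster, at 33.2 CPM (31.7–34.6) against 5.73 CPM in other mesenchymal cells, but by line it divided. In the Nkx3.2-Cre line it stood at 50.4 CPM in 43 M-SpP-like cells, of which 16 held it, against 8.42 CPM. In the Nkx2.5-Cre line it stood at 1.35 CPM in 21 cells, of which 1 held it, against 5.40 CPM. Robo2 was thus high in this cluster in both lines and Slit1 in the Nkx3.2-Cre line, a difference between lines that was not tested.

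Over all lines together, Slit2 and Slit3 stood lower in the M-SpP-like cluster and higher in the M-VSM-like cluster than in the other mesenchymal cells, but not each of them within every line. Slit2 stood at 131.96 CPM (129.1–134.9) in M-SpP-like cells, at 387.9 CPM (381.2–394.6) in M-VSM-like cells and at 125.03 CPM (119.7–130.5) in M-III-like cells. Within the Nkx3.2-Cre line it was 2.52-fold lower in M-SpP-like cells than in the other mesenchymal cells and 1.66-fold higher in M-VSM-like cells, at 396.6 CPM. The 24 cells of this line in the unnamed cluster of 52 cells stood as high, at 407.8 CPM. In the 6 M-VSM-like cells of the Prox1-GFP line it stood at 108.7 CPM, under the 140.5 CPM of the other mesenchymal cells of that line. In M-III-like cells it stood at 244.8 CPM in 6 cells of the Nkx3.2-Cre line against 268.1 CPM in the others, and at 87.9 CPM in 18 cells of the Prox1-GFP line against 151.6 CPM. Slit3 stood at 97.8 CPM (94.5–101.2) in M-VSM-like cells against 36.4 CPM elsewhere, a ratio of 2.68 (2.58–2.79), and at 23.6 CPM (22.4–24.8) in M-SpP-like cells. The low value in M-SpP-like cells was that of the Nkx3.2-Cre line, at 22.2 against 68 CPM, while in the Nkx2.5-Cre line Slit3 stood at 27.01 against 27.1 CPM. Robo1 was highest in the M-III-like cluster over all lines together, at 115.9 CPM (110.8–121.3) against 54.4 CPM. In 18 cells of the Prox1-GFP line it stood at 91.4 CPM against 66.1 CPM in the others. In 6 cells of the Nkx3.2-Cre line it stood at 195.2 CPM against 48.5 CPM, the top 3 cells holding 86.8% of these counts. The 16 cells of the Nkx2.5-Cre line in the unnamed cluster of 52 cells also stood at 91.4 CPM.

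**Figure D3:**
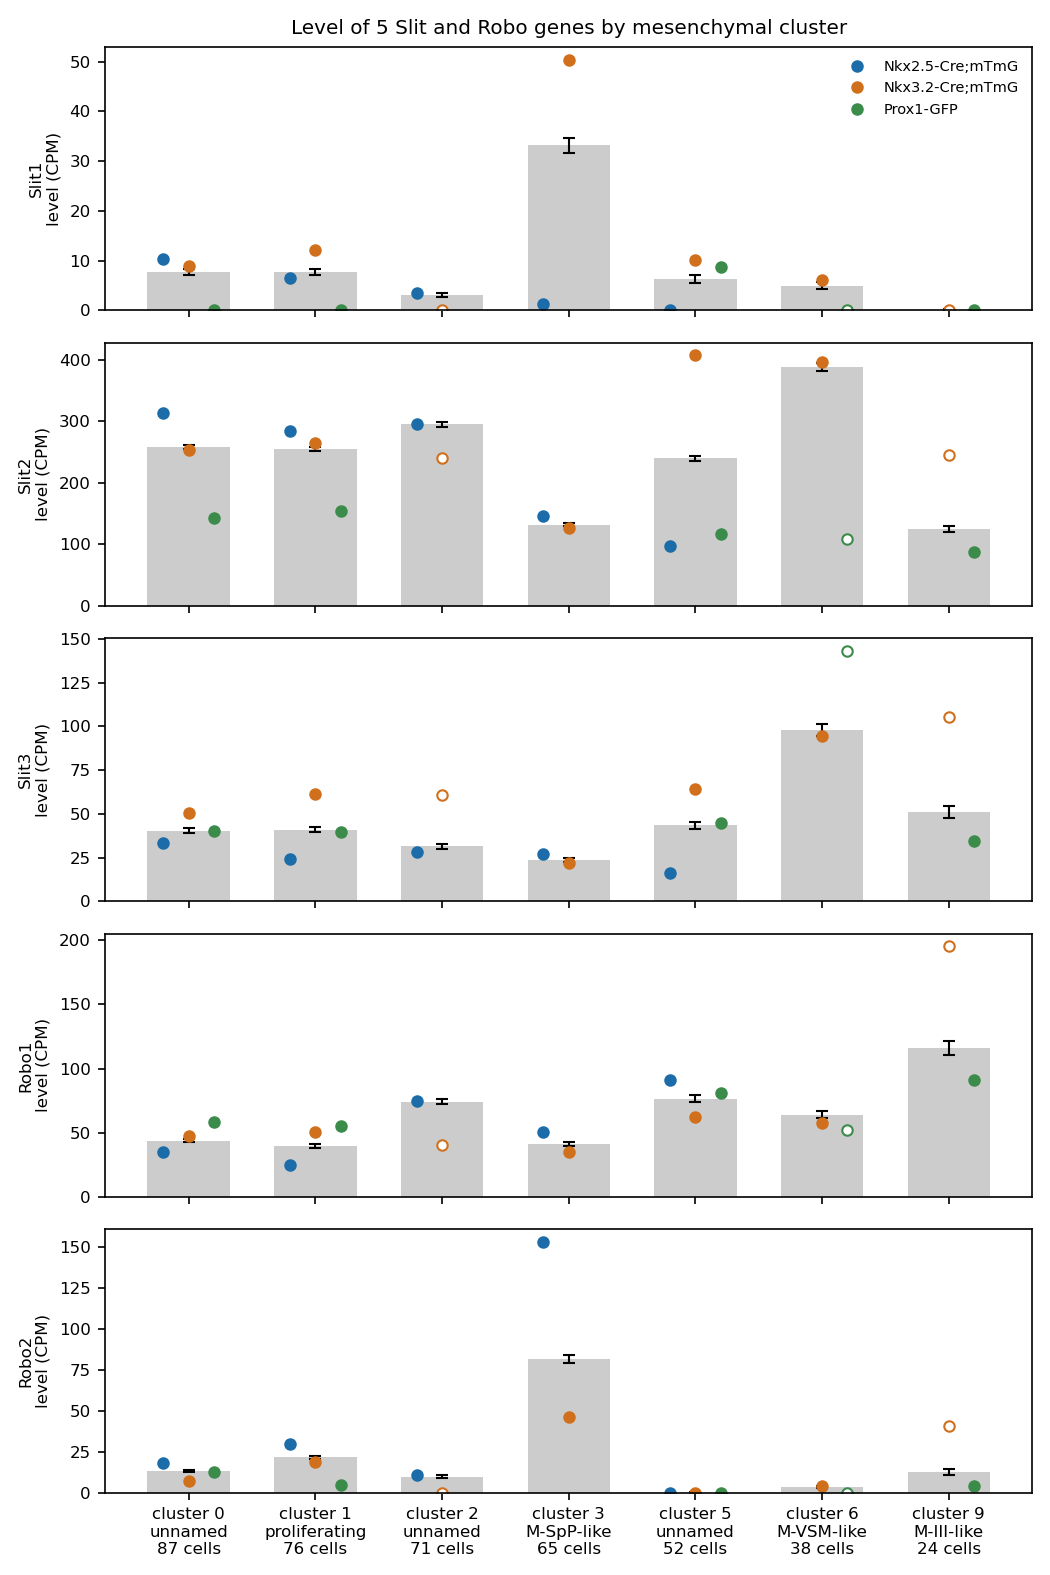
Level in CPM (vertical axes, linear, from 0) of 5 members in 7 mesenchymal clusters, with the name and number of cells under each. Grey bars give all cells of the cluster with exact 95% Poisson intervals, and points give each line with 5 or more cells there (open points, under 10 cells); Robo2 stands at 81.6 CPM and Slit1 at 33.2 CPM in the M-SpP-like cluster, with the Nkx2.5-Cre point for Slit1 at 1.35 CPM.

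Cycling cells, called by their proliferation markers, held less Slit2 in every line than the other mesenchymal cells. In the mesenchyme of the Nkx3.2-Cre line it stood at 176.5 CPM (173.4–179.7) in 75 cycling cells and at 345.2 CPM (341.2–349.2) in 95 other cells. The values were 222.9 and 286.3 CPM in the Nkx2.5-Cre line and 122.1 and 151.02 CPM in the Prox1-GFP line. The proliferating cluster did not show this, as Slit2 stood there at 255.3 CPM against 245.7 CPM in the other mesenchymal cells. By line the values were 284.1 and 263.6 CPM in the Nkx2.5-Cre line, 264.6 and 268.2 CPM in the Nkx3.2-Cre line and 153.5 and 134.1 CPM in the Prox1-GFP line. The M-SpP-like cells, which are low in Slit2 and of which 37 were cycling, counted among the cycling cells, and their part in the difference was not tested. Robo1 was lower in cycling cells of each line as well, at 41.1 against 61.8 CPM in the Nkx3.2-Cre line. Slit1 went the other way, at 28.7 CPM in cycling and 11.5 CPM in other cells of that line.

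Within the epithelium, Slit3 was high in the cells with tip markers. Epithelial cells fell into a cluster of 56 cells with tip markers, which at this stage mark progenitors at the ends of the branches, and a cluster of 30 cells nearly without them, with 1 cell outside both. Cpa1, a tip marker, stood at 1762 CPM in the former and 20.3 CPM in the latter. This comparison was chosen after the clusters had been seen. Of 10376 genes tested, 6.53% were higher and 11.5% lower in the cells with tip markers. Of the members tested there, Slit3 was higher and Robo1 and Robo2 were lower. For both receptors a few cells held most counts of the cells without tip markers.

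Slit3 stood at 40.7 CPM in the cells with tip markers and at 3.45 CPM in the cells without, a ratio of 11.8 (9.42–15), and 37 of 56 cells held it against 3 of 30. On plate 8A the levels were 39.4 and 5.08 CPM, and on plate 8B 41.9 CPM and 0 counts in 9 cells. Robo1 stood at 17.8 CPM against 35.7 CPM, a ratio of 0.499 (0.453–0.549), with 46.4% and 40% of cells holding it. On plate 8B the ratio was 0.561, short of 2-fold. The top 3 of the 30 cells without tip markers carried 56.4% of the Robo1 counts there. Robo2 stood at 0.739 CPM from 1 cell against 10.7 CPM from 4 cells, all on plate 8A. The top 3 of these 4 cells carried 99.2% of the counts, 1 of them at 308.8 CPM, with a median of 15.3 CPM among the 4. Slit2, which stayed under 10 CPM in both, stood at 5.75 CPM against 0.177 CPM. Of the cells with tip markers 40 were cycling, and of the others 12. With cycling cells left out, the ratio of Slit3 was 20.5 and that of Robo1 0.0929, from 16 and 18 cells.

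Slit2 and Robo1 were found together in 208 of 415 mesenchymal cells, or 50.1% (45.2–55.04). The share was 41.1% in the Nkx2.5-Cre line, 63.5% in the Nkx3.2-Cre line and 40.3% in the Prox1-GFP line, and 41.7% overall after thinning. Slit2 was held by 82.9% of cells with Robo1 and by 79.9% of cells without it, so the presence of the receptor told little of that of the ligand. Slit2 and Robo2 were found together in 13.3% (10.1–16.9) of mesenchymal cells, and Slit3 and Robo1 in 20.7% (12.7–30.7) of epithelial cells. For Slit1 and Robo2 the shares parted, as Slit1 was held by 31.2% of the 64 mesenchymal cells with Robo2 and by 7.98% of the 351 without it. In the Nkx3.2-Cre line these shares were 46.9% and 13.8%, and 38.5% and 12.5% after thinning. In the Nkx2.5-Cre line they were 20% and 5.59%, and in the Prox1-GFP line 0 of 7 cells with Robo2 held Slit1. Of the 20 cells with both genes, 15 were of the Nkx3.2-Cre line.

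Counting any Slit and any Robo, 59.5% (54.6–64.3) of mesenchymal cells held both kinds, 28.2% a Slit alone, 6.51% a Robo alone and 5.78% neither. The share with both was 72.4% (64.98–78.9) in the Nkx3.2-Cre line and 48.2% (40.4–56.04) in the Nkx2.5-Cre line, and 55.8% (44.1–67.2) in the Prox1-GFP line. At an equal 100000 counts per cell it was 61.8% in the Nkx3.2-Cre and 38.1% in the Nkx2.5-Cre line. Cells of the Nkx2.5-Cre line had more counts, with a median of 1056670 against 896115, and fewer genes detected, and the part of the number of genes in the difference was not tested. Of epithelial cells, 25.3% (16.6–35.8) held both, 28.7% a Slit alone, 20.7% a Robo alone and 25.3% neither. A Robo without a Slit was found in 18 of 87 epithelial cells and, on the same plates, in 8 of 77 mesenchymal cells (10.4%), in 10.7% of the mesenchymal cells of the Nkx2.5-Cre line and in 1 of 170 of the Nkx3.2-Cre line.

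**Figure D4:**
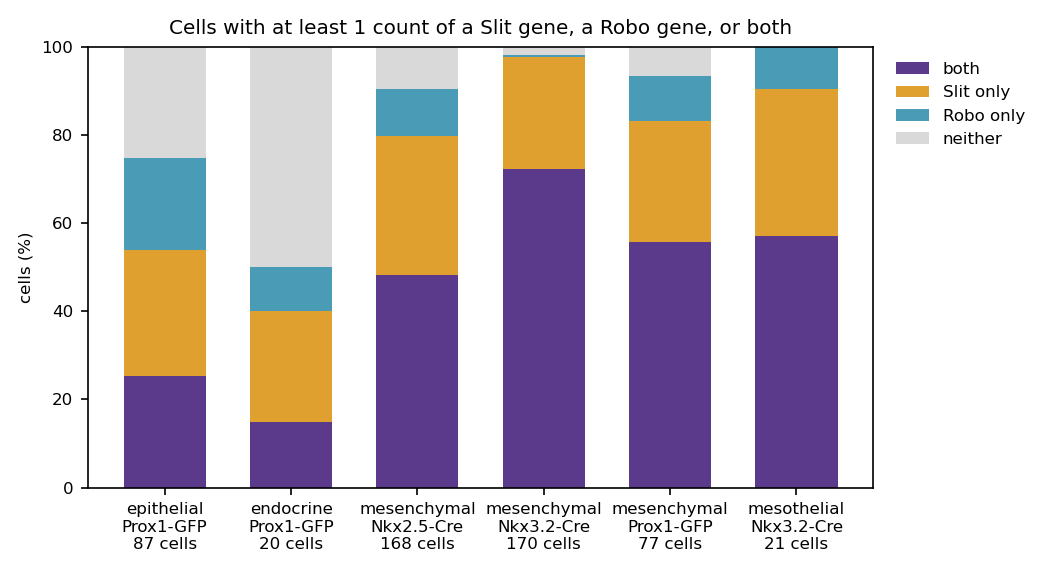
Share of cells (vertical axis, percent, stacked to 100) with at least 1 count of a Slit and of a Robo gene, of a Slit alone, of a Robo alone or of neither, for 6 groups by state and line with the number of cells under each. Cells with both kinds make up 72.4%, 55.8% and 48.2% of the mesenchymal cells of the Nkx3.2-Cre, Prox1-GFP and Nkx2.5-Cre lines and 25.3% of epithelial cells.

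A list of 54 other genes of the pathway was read in the same comparisons. Between epithelium and mesenchyme of the Prox1-GFP line 46 were tested, of which 5 were higher and 13 lower in epithelium, with a median log2 ratio of -0.13 against -0.002 over all genes tested, of which 14.6% were higher and 13.6% lower. Srgap3, an srGAP protein that binds Robo tails, was 3.94-fold higher in epithelium. Among 10 surface and matrix partners 2 were higher and 5 lower. Sdc4, a heparan sulfate carrier, stood at 300.3 CPM in epithelium and 56.7 CPM in mesenchyme, and Met, the receptor of hepatocyte growth factor, at 42.01 and 0.407 CPM. Lower in epithelium were Flrt3, a membrane partner of Robo1, by 9.72-fold, Gpc1, a glypican, by 8.11-fold, and Mmp2, a matrix metalloprotease, by 125.7-fold. The 6-O-sulfotransferases of heparan sulfate went opposite ways, as Hs6st1 stood at 34.7 CPM in epithelium and 3.73 CPM in mesenchyme, and Hs6st2 at 1.33 and 61.8 CPM.

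In mesothelial against mesenchymal cells of the Nkx3.2-Cre line, 7 of 48 pathway genes tested were higher and 6 lower, where 12.2% and 12.5% of all genes were. Cables1, which links Robo to Abl and N-cadherin, was 27.9-fold higher, Sdc4 6.19-fold, Hs6st1 3.62-fold and Unc5b, a netrin receptor, 3.56-fold. Evl, of the Ena/VASP family, was 4.62-fold lower, Gpc1 4.05-fold, Sdc3 3.97-fold and Srgap2 3.68-fold. In the mesenchymal cells of the Nkx2.5-Cre line against the Nkx3.2-Cre line, where 4.26% of all genes were higher and 5.8% lower, 1 of 46 was higher, Sdc4 by 2.07-fold, and 2 were lower, Nell2, a ligand of Robo3, by 5.41-fold and the chemokine Cxcl12 by 2.93-fold. In the Prox1-GFP line, where 4.05% and 4.86% of all genes were, 2 of 45 were higher, Srgap1 and Sdc4, and 2 lower, Arhgap39 and Nell2.

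The genes whose profile was most like that of each member were sought over the 18 sums of cluster by line with at least 10 cells, among 13343 genes, by Pearson correlation of log2(CPM + 1). These values describe sums that share libraries. For Slit2 they were Col1a1 (r = 0.967), Pcdh18 (r = 0.966) and Col3a1 (r = 0.965), of which the collagens belong to the markers that defined mesenchymal cells. For Slit3 they were Tuba1a (r = 0.846), Nrp1 (r = 0.806) and Pdgfrb (r = 0.798), of which Pdgfrb also belongs to those markers. For Robo1 they were Serpinh1 (r = 0.940), Zfp521 (r = 0.935) and Mical1 (r = 0.927), for Robo2 Plce1 (r = 0.856), Apba2 (r = 0.843) and Rps6ka5 (r = 0.802), and for Slit1 Coq10b (r = 0.798), Zfp319 (r = 0.769) and Zc3h10 (r = 0.760).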

How the data were processed

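The authors trimmed reads with Trim Galore 0.6.5, quantified them with kallisto on GRCm38 (mm10) and deposited 3 tables of estimated counts by gene and cell, without normalization. The kit marks no strand and no molecules, so antisense overlaps cannot be told apart and PCR copies are counted. The members, marker lists and pathway list were chosen with earlier results of these data known. Symbols came from GENCODE M21. Of 576 cells 549 were kept, those that had 1000 genes or more, 100000 counts or more and no more than 30% of counts from mitochondrial genes, as in the study. No 2 cells held identical values. States were given by the mean log2 level of fixed markers, clusters by Seurat 5.3.0 (20 components, resolution 1.9) without members or pathway genes, and named by a rule written after the clusters were seen. Sums per state and line were compared as CPM, with no test, a floor of 3 counts, a 2-fold line and a minimum of 10 CPM. All 7 members are named throughout, with up to 4 pathway genes each way and 3 similar genes per member at 10 CPM or more. The ratio script was tested on simulated data. Alternatives were another cell filter, per-cell means, edgeR 4.0.16 TMM and median-of-ratios scaling, cluster states, mixed or cycling cells left out, plates left out, other folds, thinning and clusterings.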

Additional observations from a re-analysis of the deposited data

Results flagged for a closer look

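In mesenchyme, 4 of 40 contrasts of a member, a cluster and a pair of lines passed 2-fold in opposite ways. Slit1 in the M-SpP-like cluster stood at 0.250 times its level in the other mesenchymal cells in the Nkx2.5-Cre line and at 5.99 times in the Nkx3.2-Cre line, and in the former this rests on 21 cells, of which 1 held Slit1. In the unnamed cluster of 87 cells Slit1 went the other way, at 2.99 times in the Nkx2.5-Cre line (7 of 37 cells) and 0.413 times in the Nkx3.2-Cre line (8 of 29 cells). Robo2 in that cluster stood at 0.493 times in the Nkx2.5-Cre line, 0.343 times in the Nkx3.2-Cre line and 5.10 times in the Prox1-GFP line, where 2 of 21 cells held it. These differences were not tested, since each line is 1 sample.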

How the results depend on the processing

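No paired analysis was possible because no test was run, each line being 1 sample, and the replicate numbers only name cells. Of the values recomputed for the counts of members, the cluster and tip ratios and the shares of cells with a pair of genes, 196 stayed within the spread between plates or the counting interval and 18 did not. For single ratios these numbers were 232 and 15. Of the ratios past 2-fold, 0 changed direction, while Robo2 between the Cre lines, at 1.74, fell under 1 without plate 6A (0.760). In the comparison of the Nkx2.5-Cre with the Nkx3.2-Cre mesenchyme, 1 member (Robo2) was higher with per-cell means or a 1.5-fold line, and 1 was lower at 3-fold. Leaving out a plate gave 0 to 1 higher and 1 to 2 lower. Without the minimum of 10 CPM, 1 member (Robo3, from 1 cell) was higher in the Prox1-GFP mesenchyme. Leaving out a plate gave 3 to 5 members lower in mesothelium and 2 to 3 in epithelium. With cycling cells left out, the ratio of Robo2 in the M-SpP-like cluster was 16.4, that of Slit2 between epithelial cells with and without tip markers 5.60 and that of Robo1 there 0.0929, and Slit2 and Robo2 shared 9.41% of mesenchymal cells. Leaving out a plate gave 7.75 to 101.4 for Slit3 by tip markers, the latter computed at the floor of 3 counts. The same gave 15.6 to 76.01 for Slit2 and 0.325 to 0.561 for Robo1. At 30 components or a resolution of 1.0 the epithelial cells formed 1 cluster, so that no value could be had, while the tip score of each cell in place of clusters gave 9.04 for Slit3. Slit2 and Robo1 were together in 42.9% of mesenchymal cells at 5 or more counts and in 41.7% after thinning. For Slit3 and Robo1 in epithelium thinning gave 11.5% and leaving out a plate 14.3% to 28.9%. The causes were not tested. Levels under the floor of 3 counts in a sum, and shares in the 20 endocrine and 26 mesothelial cells, are limited by the number of cells.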

Other observations

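The 27 cells left out by the filters held 258922 counts in all, of which 2 were Slit2 and 3 were Robo1, with none of the other members.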
